A study of Mus musculus with 6 samples.

Results

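The 39 genes described here encode proteins of the cardiac sarcomere, of its Z-disc and of the structures that tie it to the rest of the cardiomyocyte. They were chosen by name from the 54532 genes of the deposited table, and each of the 39 symbols was found in it. The hearts came from C57BL/6 mice (C57BL/6J in the methods), either wild type (WT, 3 libraries) or lacking the receptor for thymic stromal lymphopoietin (labelled TSLPR KO, a knockout of *Crlf2*, hereafter *Crlf2-/-*, 3 libraries). All mice, controls included, had their left anterior descending coronary artery ligated and were sampled on day 7, so no library shows an uninjured heart. The methods describe the purchased WT mice as young adult males and state neither age nor sex for the *Crlf2-/-* mice. The *Crlf2-/-* line, for which no cell type-specific driver is named, came from another supplier than the WT mice, and the tissue was the infarcted and peri-infarcted myocardium. The comparison asks how the sarcomere transcripts of the infarcted heart differ when this receptor is missing.

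The sarcomere is the contractile unit of striated muscle. Thick filaments of myosin, with their essential and regulatory light chains and myosin-binding protein C, pull on thin filaments of actin, tropomyosin and troponin. Titin spans from the Z-disc to the M-band, thin filaments are anchored at the Z-disc by alpha-actinin, and desmin and the intercalated disc link sarcomeres to each other and to neighbouring cells. Several of these proteins exist as isoforms that are switched during development, between atrium and ventricle, and between heart and skeletal muscle, and a number of them are re-expressed or lost when the ventricle is injured.

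The libraries held between 18508646 and 19682428 fragments on listed genes. Expression is given as FPKM (fragments per kilobase of gene model, relative to the total of the library), which corrects for gene length, after TMM scaling (trimmed mean of M values) of the libraries. Group values are the mean ± SD of 3 libraries. Log2 fold changes are *Crlf2-/-* minus WT of log2(FPKM + 0.1), where the added 0.1 shrinks the change of genes near 0. They were tested with limma over the 15520 genes with at least 10 fragments in at least 3 libraries, with Benjamini-Hochberg adjustment over all of them. The study describes 3 mice per genotype, but the sample labels do not name mice, and p-values measure only the spread between these libraries. *Crlf2* itself was read at 26.6, 24.8 and 21.8 FPKM in WT replicates 1, 2 and 3 and at 13.2, 18.6 and 19.8 FPKM in *Crlf2-/-* replicates 1, 2 and 3 (log2 fold change -0.52 with a standard error (SE) of 0.16, adjusted p = 0.514 from limma). Every *Crlf2-/-* library was thus below every WT library, but transcripts of the targeted gene were present in all 3, and the exons behind them cannot be read from a table of genes. The extraction protocol in the labels names retinas, while the tissue label and the methods name heart. The cardiac markers below were present in every library.

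*Crlf2-/-* replicate 2 stood apart from the other 5 libraries and is considered first, because several genes described here are shared between heart and skeletal muscle. Over 20 skeletal muscle genes, the summed level was 506.4 FPKM in this library and between 11.6 and 20.3 FPKM in the other 5. Of the 20 genes, 19 had their highest value there, and *Tnnc2*, the fast skeletal troponin C, had no fragment in any library. *Myh1*, a fast skeletal myosin heavy chain, had 3781 fragments in *Crlf2-/-* replicate 2 and between 0 and 5 in each of the others. *Myod1* and *Myog*, the transcription factors that direct skeletal myogenesis, had 69 and 160 fragments in it and 0 in every other library. Log2 fold changes of sarcomere genes with their highest or lowest value in this library are given with and without it. So are several medians and counts. This choice was made after the data were seen.

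Sequences of the genes help to read the results. The sarcomeric actins, cardiac *Actc1* and skeletal *Acta1*, are close paralogs whose reads could be confused, so the first 120 bases of both coding sequences (GENCODE M21 transcripts, GRCm38) are shown with the 19 differing bases in capitals.
Actc1: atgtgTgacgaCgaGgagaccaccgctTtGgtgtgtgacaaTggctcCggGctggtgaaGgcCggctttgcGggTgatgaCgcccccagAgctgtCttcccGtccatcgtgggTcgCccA
Acta1: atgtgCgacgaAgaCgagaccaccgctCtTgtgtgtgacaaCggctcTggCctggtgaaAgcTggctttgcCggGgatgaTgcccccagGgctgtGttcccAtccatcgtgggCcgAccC
Over the whole coding sequence 976 of 1131 bases, or 86.3%, were identical, and the longest identical run was 29 bases. The cardiac and the embryonic essential light chains *Myl3* and *Myl4* were 73.2% identical with a longest run of 29 bases, and the troponin I genes *Tnni3* and *Tnni1* 55.4%. The alpha and beta myosin heavy chains *Myh6* and *Myh7* were 91.5% identical with a longest run of 245 bases, so a fragment inside such a run could not be placed by its sequence, and their separate values are less certain. How the authors' counting treated reads that fit both genes is not given in the sources used here.

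The second kind is the promoter. Below are bases 250 to 51 before the RefSeq start of *Tnnc1* (cardiac troponin C), *Myl3* and *Acta1*, read in the direction of the gene in build GRCm38.p6, at chr14:31208062-31208261 (plus strand), chr9:110763428-110763627 (plus strand) and chr8:123894826-123895025 (minus strand). They are shown because *Tnnc1* and *Myl3* were among the genes with the smallest p and *Acta1* was the abundant gene that moved most in *Crlf2-/-* replicate 2. Capitals mark the MCAT element (CATTCC, or GGAATG on the other strand), which TEAD factors bind in muscle genes, and the CArG box, which serum response factor binds. Bases closer to the start than base 51 were searched but are not shown. The MCAT element and the TATA box counted below for *Acta1* lie there at least in part.
Tnnc1: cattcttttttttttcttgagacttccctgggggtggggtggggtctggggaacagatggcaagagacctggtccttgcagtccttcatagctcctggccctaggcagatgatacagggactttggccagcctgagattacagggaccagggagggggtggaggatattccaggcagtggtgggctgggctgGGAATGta
Myl3: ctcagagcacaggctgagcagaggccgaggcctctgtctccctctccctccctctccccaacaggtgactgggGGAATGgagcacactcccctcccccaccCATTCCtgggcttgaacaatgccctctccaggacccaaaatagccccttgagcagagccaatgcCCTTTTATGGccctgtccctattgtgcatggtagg
Acta1: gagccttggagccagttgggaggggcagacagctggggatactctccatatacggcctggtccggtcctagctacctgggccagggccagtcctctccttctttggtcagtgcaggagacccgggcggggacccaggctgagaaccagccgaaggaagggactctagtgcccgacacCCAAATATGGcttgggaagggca
A window whose start lay within 100 bases of a principal GENCODE transcript was found for 29 of the 39 genes and for 14339 genes in all. Within the 250 bases before the start, on either strand, a CArG box occurred in 7 of the 29 (24.1%) and in 1.39% of all windows. An MCAT element occurred in 9 (31%) against 11.3% of all, a MEF2 site in 4 (13.8%) against 1.66%, the GATA motif AGATAA in 5 (17.2%) against 9.2%, and the TATA box TATAAA in 2 (6.9%) against 12.3%. Motifs may overlap each other, and these matches describe letters in a window and not bound sites.

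Across the 39 genes, most sarcomere transcripts were lower in *Crlf2-/-* than in WT hearts. None was called different after adjustment over all genes tested, and in all but 2 genes the groups overlapped. Of the 38 genes that passed the filter, 32 had a lower mean log2 level in *Crlf2-/-* hearts and 6 a higher one, with a median log2 fold change of -0.37 against -0.0044 for all 15520 genes tested. A gene was called different when its adjusted p did not exceed 0.05 and its log2 fold change was 0.5 or more in either direction. None of the 38 was called, a call that 0.0129% of all genes reached, and the lowest adjusted p was 0.391 (limma). At an unadjusted p under 0.05, 5 of the 38 (13.2%) were lower, where 3.36% of all genes tested were, and 0 were higher, where 3.2% were. The 2 groups did not overlap in 2 genes, *Myl2* and *Smpx*, both lower (5.26% of the 38, against 6.42% of all genes), and in 0 that were higher (against 5.37%). Without *Crlf2-/-* replicate 2 the median was -0.445, 33 genes were lower and 5 higher, and 3 were lower at an unadjusted p under 0.05 (7.89%, against 2.88% of all genes in the same fit). *Myl7*, the atrial regulatory light chain, was the gene that did not pass the filter, with between 0 and 7 fragments per library. In bulk tissue, fewer cardiomyocytes and less sarcomere RNA per cardiomyocyte cannot be told apart.

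**Figure D1:**
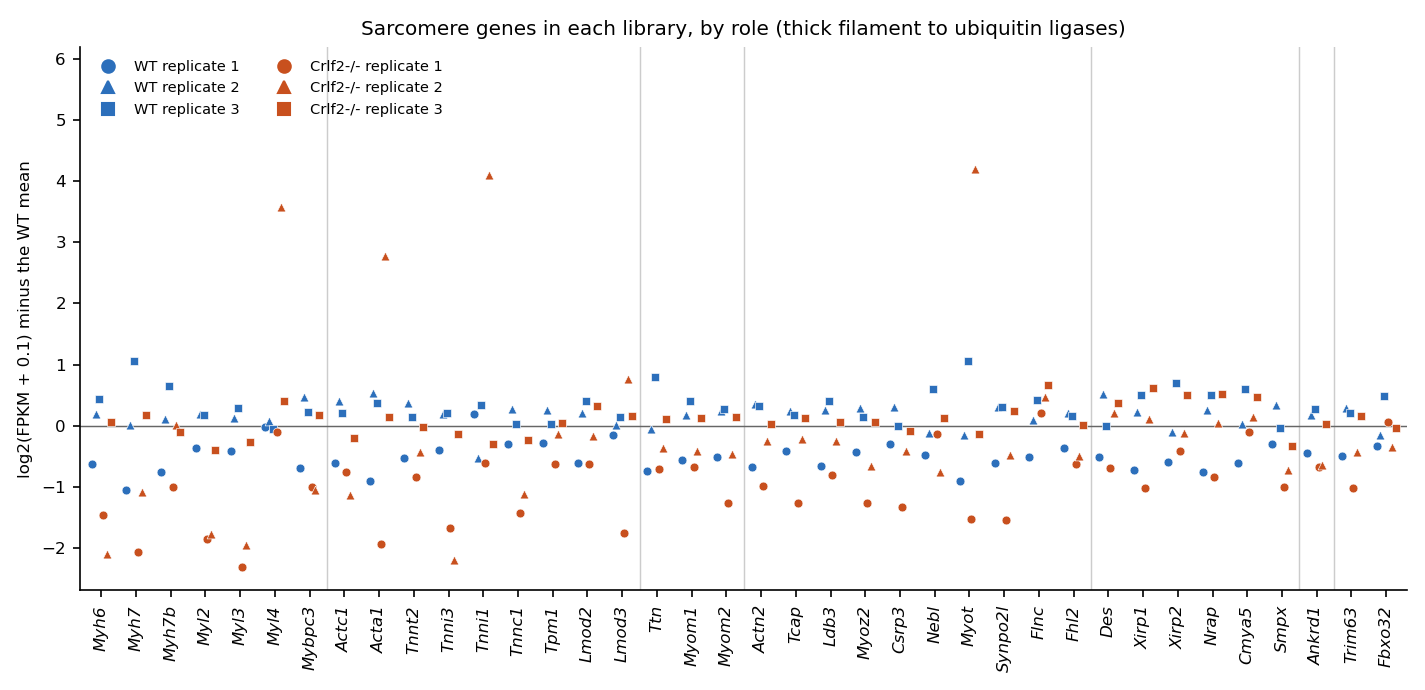
Level of each of the 38 tested genes in each library, as log2(FPKM + 0.1) minus the mean of the 3 WT libraries, with the genes in blocks by role (thick filament, thin filament, titin and M-band, Z-disc, desmin and costamere, *Ankrd1*, ubiquitin ligases). WT replicate 1 and *Crlf2-/-* replicate 1 lie low in most genes, *Crlf2-/-* replicate 3 lies near the WT libraries, and *Crlf2-/-* replicate 2 lies far above all others in *Acta1*, *Tnni1*, *Myl4* and *Myot*.

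The genes of the thick filament had the lowest values relative to WT. Of the 7 that were tested, 6 were lower, with a median log2 fold change of -0.995. Without *Crlf2-/-* replicate 2 the median was -0.71, and it lay between -1.58 and -0.46 as each library was left out. *Myl2* (ENSMUSG00000013936, chromosome 5 from 122100951 to 122113472, plus strand), the regulatory light chain of the ventricle, was at 81.2, 119 and 118 FPKM in the WT libraries and at 28.8, 30.4 and 78.7 FPKM in the *Crlf2-/-* libraries, in replicate order as in all lists of values here. All 3 *Crlf2-/-* libraries were below all 3 WT libraries, although *Crlf2-/-* replicate 3 was close to WT replicate 1. Its log2 fold change of -1.34 (standard error 0.37) had the smallest adjusted p of the 38 genes (adjusted p = 0.391 with limma). *Myl3* (ENSMUSG00000059741, chromosome 9 from 110741861 to 110769798, plus strand), the essential light chain of the ventricle and of slow muscle, had the lowest log2 fold change of the 38 genes, -1.52 (SE 0.49 in limma, adjusted p = 0.532). It was at 50.7, 73.7 and 81.9 FPKM in WT and at 13.5, 17.3 and 55.9 FPKM in *Crlf2-/-* hearts. Here the groups overlapped, because *Crlf2-/-* replicate 3 exceeded WT replicate 1.

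In the myosin heavy chains the groups overlapped as well. *Myh6*, the alpha heavy chain that dominates the adult mouse ventricle, was at 42.7, 75.7 and 89.9 FPKM in WT and at 23.9, 15.4 and 68.7 FPKM in *Crlf2-/-* hearts (log2 fold change -1.17 with a standard error of 0.53, adjusted p = 0.792 from limma). *Myh7*, the beta heavy chain that is re-expressed in the stressed mouse ventricle, was much less abundant, at 3.598, 7.605 and 15.8 FPKM in WT and 1.73, 3.51 and 8.56 FPKM in *Crlf2-/-* hearts (log2 fold change -0.995). *Mybpc3*, cardiac myosin-binding protein C, was more abundant per length than either, at 104 ± 39.1 FPKM in WT and 69.2 ± 36.2 FPKM in *Crlf2-/-* hearts (log2 fold change -0.63). *Myh7b*, a heavy chain gene of low expression in heart, had at most 31 fragments in a library and overlaps *Trpc4ap* on the other strand, which had between 2858 and 3245 fragments. Its log2 fold change was -0.37. *Myl4*, the atrial and embryonic light chain, was the only thick filament gene with a higher value, and is described with the isoforms below.

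The thin filament genes held both the most abundant transcript of the 39 and some of the lowest. Of the 9 tested, 7 were lower, with a median log2 fold change of -0.28 that became -0.48, with all 9 lower, without *Crlf2-/-* replicate 2. *Actc1*, cardiac alpha-actin, was at 685, 1384 and 1202 FPKM in WT and at 620, 477 and 908 FPKM in *Crlf2-/-* hearts. The difference was -0.70 on the log2 scale (SE 0.31, adjusted p = 0.784 with limma), and the lowest WT library lay between the *Crlf2-/-* libraries. *Tnnc1* (ENSMUSG00000091898, chromosome 14 from 31208312 to 31211729, plus strand), the calcium-binding troponin subunit of heart and slow muscle, was at 97.5, 145 and 122 FPKM in WT and at 44.3, 55.3 and 102 FPKM in *Crlf2-/-* hearts. *Crlf2-/-* replicate 3 again reached into the WT range, and the log2 fold change was -0.93 (SE 0.30 in limma, adjusted p = 0.520). *Tnnc1* overlaps *Nisch*, a gene of the opposite strand with between 5869 and 7059 fragments, and *Myl3* overlaps *Pth1r* in the same way (540 to 675 fragments). Whether the counting used strand is not given in the sources used here.

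*Tnni3* (ENSMUSG00000035458, chromosome 7 from 4518305 to 4524229, minus strand), the cardiac inhibitory troponin subunit, was at 42.3, 63.8 and 64.0 FPKM in WT and at 17.3, 12.0 and 50.4 FPKM in *Crlf2-/-* hearts (log2 fold change -1.34 with a standard error of 0.47, adjusted p = 0.622 from limma). *Tnnt2*, the cardiac troponin subunit that binds tropomyosin, was at 92.1 ± 27.6 FPKM in WT and 67.7 ± 18.8 FPKM in *Crlf2-/-* hearts (log2 fold change -0.43). *Tpm1*, alpha-tropomyosin, was at 196 ± 36.2 FPKM in WT and 167 ± 38.7 FPKM in *Crlf2-/-* hearts (log2 fold change -0.24). *Lmod2*, a leiomodin that elongates thin filaments, was at 23.7, 42.1 and 48.1 FPKM in WT and 23.4, 32.3 and 45.3 FPKM in *Crlf2-/-* hearts. Its groups covered nearly the same range, with a log2 fold change of -0.16.

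The genes of titin and of the M-band proteins had lower means in *Crlf2-/-* hearts in all 3 cases. *Ttn* was at 0.644, 1.10 and 2.05 FPKM in WT and at 0.663, 0.868 and 1.24 FPKM in *Crlf2-/-* hearts, a level that FPKM spreads over a gene model of 116825 bases (log2 fold change -0.32). *Myom1*, the gene of myomesin, which crosslinks thick filaments at the M-band, was the most abundant of the 3 genes per length, at 9.17, 15.3 and 17.98 FPKM in WT and 8.44, 10.2 and 14.9 FPKM in *Crlf2-/-* hearts (log2 fold change -0.33). It overlaps *Myl12a* on the opposite strand, which had 3718 to 5124 fragments. Its relative *Myom2* was at 8.56 ± 2.42 FPKM in WT and 6.19 ± 2.92 FPKM in *Crlf2-/-* hearts (log2 fold change -0.53). None of the 3 had an unadjusted p under 0.05.

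Among the 10 Z-disc genes, 8 were lower (median log2 fold change -0.39) and none passed an unadjusted p of 0.05. Leaving out *Crlf2-/-* replicate 2, 9 were lower and the median was -0.53. *Fhl2*, a LIM protein that binds titin, was the most abundant, at 69.8, 105 and 101 FPKM in WT and 58.3, 64.2 and 91.5 FPKM in *Crlf2-/-* hearts (log2 fold change -0.37). *Myoz2* and *Csrp3*, a calcineurin-binding Z-disc protein and the muscle LIM protein, had log2 fold changes of -0.62 and -0.61. *Myoz2* was at 16.6 ± 4.07 FPKM in WT and 11.3 ± 5.17 FPKM in *Crlf2-/-* hearts, and *Csrp3* at 48.4 ± 10.2 and 33.2 ± 13.2 FPKM. *Synpo2l*, an actin-associated Z-disc gene, had a value of -0.59, from 9.85 ± 3.20 FPKM in WT and 7.04 ± 3.99 FPKM in *Crlf2-/-* hearts. *Tcap* (telethonin, which caps titin) was at -0.46, *Actn2* (alpha-actinin) at -0.41, *Ldb3* (cypher) at -0.34 and *Nebl* (nebulette) at -0.25 on the same scale of log2 fold change. Their WT means were 54.9 ± 12.7, 42.1 ± 14.8, 12.4 ± 4.34 and 2.96 ± 1.22 FPKM, and their *Crlf2-/-* means 42.3 ± 18.4, 31.4 ± 10.4, 9.58 ± 2.78 and 2.41 ± 0.728 FPKM.

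*Flnc*, the muscle filamin that crosslinks actin at the Z-disc and at sites of sarcomere damage, differed from the rest of the Z-disc. It was at 5.93, 9.12 and 11.4 FPKM in WT and at 9.83, 11.8 and 13.6 FPKM in *Crlf2-/-* hearts. The log2 fold change of 0.44 (SE 0.23 in limma, adjusted p = 0.835) was not past the threshold, but its sign was the same with any single library left out (range 0.19 to 0.65). *Flnc* was thus the one gene among the 6 with higher values that neither depended on *Crlf2-/-* replicate 2 for its size nor changed sign when any single library was left out.

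The genes of desmin, the costamere and the intercalated disc had values near 0, apart from *Smpx*. *Des*, the gene of the intermediate filament protein desmin, was at 173, 356 and 248 FPKM in WT and at 154, 287 and 319 FPKM in *Crlf2-/-* hearts, with a log2 fold change of -0.04 (standard error 0.33). The Xin repeat genes, whose proteins sit at the intercalated disc, had values of -0.10 (*Xirp1*) and -0.01 (*Xirp2*). *Xirp1* was at 2.45, 4.80 and 5.81 FPKM in WT and 1.97, 4.43 and 6.31 FPKM in *Crlf2-/-* hearts, and *Xirp2* was at 14.5, 20.4 and 35.4 FPKM in WT and 16.4, 20.2 and 31.0 FPKM in *Crlf2-/-* hearts. In both, the lowest and the highest library of a group lay further apart than the group means. *Xirp1* overlaps *Cx3cr1*, a chemokine receptor gene listed on the same strand with 1835 to 2502 fragments. *Nrap*, which anchors terminal actin filaments, had a log2 fold change of -0.10, from 9.88 ± 4.002 FPKM in WT and 9.29 ± 4.09 FPKM in *Crlf2-/-* hearts. *Cmya5* (myospryn) was at 2.14, 3.39 and 5.08 FPKM in WT and 3.11, 3.69 and 4.64 FPKM in *Crlf2-/-* hearts (0.17).

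*Smpx* (ENSMUSG00000041476, chromosome X from 157698910 to 157752591, plus strand), a small muscle protein of the costamere, was the second gene without overlap. It was at 17.1, 26.9 and 20.7 FPKM in WT and at 10.5, 12.8 and 16.7 FPKM in *Crlf2-/-* hearts. The log2 fold change was -0.69 (SE 0.21 in limma, adjusted p = 0.472), and leaving out single libraries moved it between -0.86 and -0.52.

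*Ankrd1*, a stretch- and injury-responsive gene of the titin complex, was among the most abundant of the 39, at 366, 561 and 599 FPKM in WT and 312, 317 and 507 FPKM in *Crlf2-/-* hearts (log2 fold change -0.43, adjusted p = 0.860 with limma). The muscle ubiquitin ligases *Trim63* (MuRF1) and *Fbxo32* (atrogin-1), which mark sarcomere proteins for degradation, were both low in level. *Trim63* was at 3.73, 6.49 and 6.08 FPKM in WT and 2.55, 3.91 and 5.89 FPKM in *Crlf2-/-* hearts (log2 fold change -0.43). *Fbxo32* was at 4.22, 4.79 and 7.47 FPKM in WT and 5.53, 4.13 and 5.20 FPKM in *Crlf2-/-* hearts (-0.11). The groups overlapped in both.

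**Figure D2:**
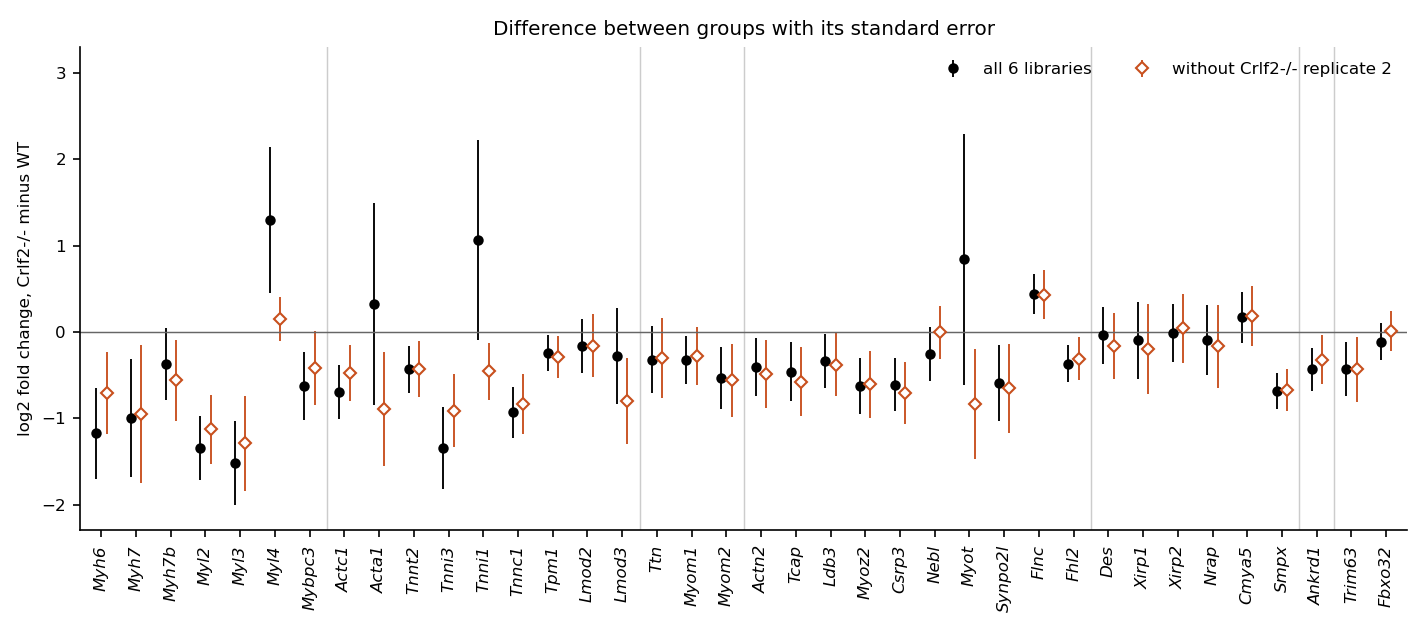
Log2 fold change, *Crlf2-/-* minus WT, of each of the 38 tested genes with its standard error from limma, with all 6 libraries (filled circles) and without *Crlf2-/-* replicate 2 (open diamonds). *Myl3* and *Myl2* are lowest in both, while *Myl4*, *Tnni1*, *Myot* and *Acta1* are above 0 with all libraries and drop to 0.15, -0.46, -0.84 and -0.90 without that library.

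In all, 5 genes had their highest value of the 6 libraries in *Crlf2-/-* replicate 2, and 4 of the 6 genes with a higher mean in *Crlf2-/-* hearts were among them. *Acta1*, skeletal alpha-actin (ENSMUSG00000031972, chromosome 8 from 123891769 to 123894751, minus strand), was at 32.0, 86.9 and 78.2 FPKM in WT and at 15.7, 412.6 and 66.4 FPKM in *Crlf2-/-* hearts. *Crlf2-/-* replicate 2 was 4.75 times the next highest library, while the other *Crlf2-/-* libraries lay below WT replicate 2, and the log2 fold change went from 0.33 (standard error 1.17) to -0.90 without it. *Myl4* was at 0.478, 0.522 and 0.467 FPKM in WT and at 0.450, 6.95 and 0.680 FPKM in *Crlf2-/-* hearts. Its log2 fold change of 1.30 was the highest of the 38 genes and was 0.15 without *Crlf2-/-* replicate 2.

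*Tnni1*, the troponin I of slow skeletal muscle and of the embryonic heart, was at 0.338, 0.165 and 0.384 FPKM in WT and at 0.151, 6.48 and 0.210 FPKM in *Crlf2-/-* hearts (log2 fold change 1.06, and -0.46 without *Crlf2-/-* replicate 2). *Myot* (myotilin, a Z-disc protein mainly of skeletal muscle) was at 0.275, 0.537 and 1.38 FPKM in WT and at 0.144, 12.9 and 0.543 FPKM in *Crlf2-/-* hearts (0.84, and -0.84 without it). *Lmod3*, the leiomodin of skeletal muscle, was at 2.02, 2.27 and 2.496 FPKM in WT and at 0.594, 3.90 and 2.53 FPKM in *Crlf2-/-* hearts (-0.28, and -0.80 without it). In *Acta1*, *Myl4*, *Tnni1* and *Myot* this library alone lay above the group mean, whereas the *Lmod3* value moved further, to 0.46, without *Crlf2-/-* replicate 1, which had its lowest level. The same library was the lowest of the 6 in 6 of the 38 genes, *Actc1*, *Myh6*, *Tnni3*, *Mybpc3*, *Nebl* and *Fbxo32*, while *Crlf2-/-* replicate 1 was the lowest in 28. The log2 fold changes of these 6 genes, in the same order, were -0.70, -1.17, -1.34, -0.63, -0.25 and -0.11 with all libraries. They were -0.48, -0.71, -0.91, -0.42, -0.0048 and 0.0085 without *Crlf2-/-* replicate 2. How far the skeletal muscle transcripts contribute to the values of single genes in that library was not tested.

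**Figure D3:**
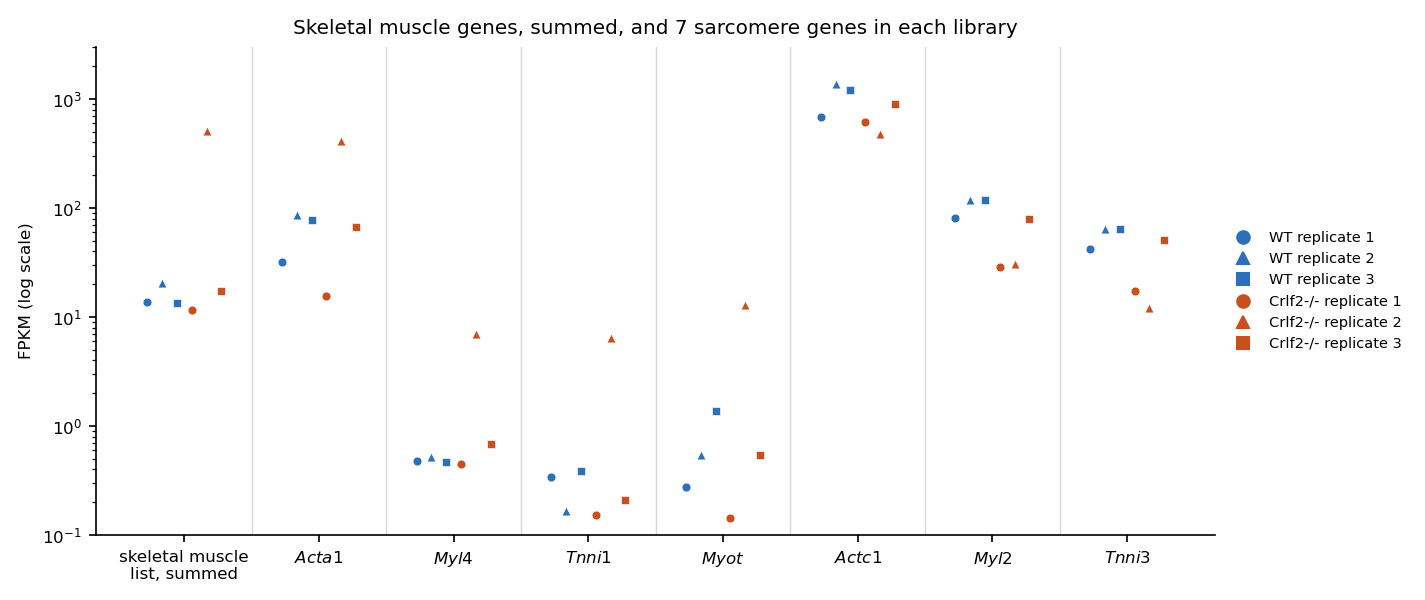
FPKM on a log scale in each library for the sum of 20 skeletal muscle genes and for 7 of the sarcomere genes. In *Crlf2-/-* replicate 2 the skeletal muscle sum is 506.4 FPKM, against 11.6 to 20.3 FPKM in the other libraries, and *Acta1*, *Myl4*, *Tnni1* and *Myot* are at their highest, while *Actc1* and *Tnni3* are at their lowest.

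Ratios between paired isoforms are nearly free of the scaling between libraries where both genes are well above the pseudocount. They were taken for 8 pairs as the log2 ratio of FPKM + 0.1 and compared with an exact two-sided permutation test, where 0.1 is the smallest p that 3 against 3 libraries allow. *Myl4*/*Myl3* was at -6.46, -6.89 and -7.18 in WT and at -4.63, -1.30 and -6.17 in *Crlf2-/-* hearts. All *Crlf2-/-* libraries exceeded all WT libraries, by a mean of 2.81, and by 1.45 without *Crlf2-/-* replicate 2 (exact permutation p = 0.1, adjusted over the 8 pairs 0.4). Without that library the log2 fold change was 0.15 for *Myl4* and -1.29 for *Myl3*, so the remaining difference lay mostly in *Myl3*. *Myl7*/*Myl2*, the atrial against the ventricular regulatory light chain, was at -9.67, -10.2 and -8.46 in WT and at -5.50, -7.47 and -7.37 in *Crlf2-/-* hearts. It was also higher in every *Crlf2-/-* library (mean difference 2.67, exact permutation p = 0.1, adjusted 0.4). *Myl2* had a log2 fold change of -1.34, and the rest of the difference lay in *Myl7*. That part rested on 0, 0 and 3 WT fragments and on 7, 1 and 5 in *Crlf2-/-* hearts, so its size depends on few fragments and on the pseudocount.

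The other 6 pairs overlapped between the groups. *Myh7*/*Myh6*, a ratio that rises with hypertrophy and failure in the mouse ventricle, was at -3.53, -3.30 and -2.501 in WT and at -3.71, -2.10 and -2.99 in *Crlf2-/-* hearts, a difference of 0.18 (exact permutation p = 0.8). The sign of this difference rested on *Crlf2-/-* replicate 2, without which it was -0.24. Beta relative to alpha myosin therefore varied within each group by more than it differed between them. *Acta1*/*Actc1* was at -4.41, -3.99 and -3.94 in WT and -5.30, -0.21 and -3.77 in *Crlf2-/-* hearts, with a mean difference of 1.02 that was -0.42 without *Crlf2-/-* replicate 2. *Tnni1*/*Tnni3* differed by 2.41, and by 0.45 without that library. The differences for *Lmod3*/*Lmod2*, *Xirp1*/*Xirp2* and *Trim63*/*Fbxo32* were -0.12, -0.09 and -0.32. Without *Crlf2-/-* replicate 2 they were -0.64, -0.24 and -0.44.

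**Figure D4:**
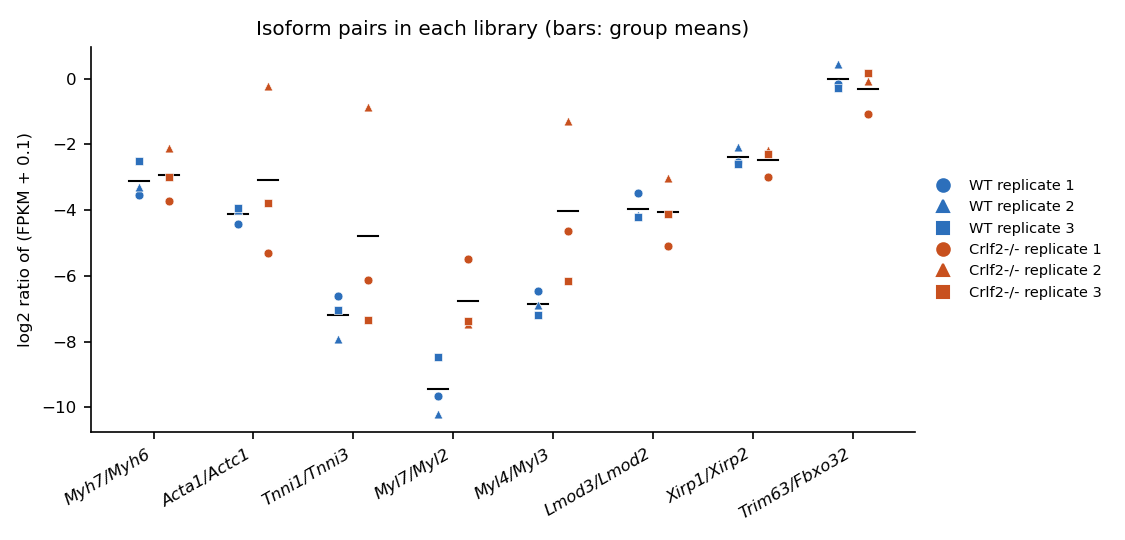
Log2 ratio of FPKM + 0.1 of 8 isoform or paralog pairs in each library, with WT on the left and *Crlf2-/-* on the right of each pair and bars at the group means. The groups are apart for *Myl7*/*Myl2* and *Myl4*/*Myl3* and overlap for the other 6 pairs, and *Crlf2-/-* replicate 2 is the highest point for *Acta1*/*Actc1*, *Tnni1*/*Tnni3*, *Myl4*/*Myl3*, *Lmod3*/*Lmod2* and *Myh7*/*Myh6*.

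The spread between libraries was wider for cardiomyocyte genes, those of the sarcomere included, than for genes at large. The median within-group SD of log2(FPKM + 0.1) was 0.49 in WT and 0.60 in *Crlf2-/-* hearts over the 38 genes, and 0.18 in both groups over all genes tested. Cardiomyocyte genes outside the sarcomere had a spread close to that of the sarcomere genes, 0.45 and 0.60 over the 29 that were tested. The libraries differed together. WT replicate 1 was the lowest WT library in 36 of the 38 genes, *Crlf2-/-* replicate 1 was the lowest of all 6 libraries in 28, and *Crlf2-/-* replicate 3 was the highest *Crlf2-/-* library in 31. Relative to the WT mean, the median log2 level of the 38 genes was -0.52, 0.21 and 0.29 in the WT libraries and -0.998, -0.39 and 0.08 in the *Crlf2-/-* libraries. *Crlf2-/-* replicate 3 therefore lay above WT replicate 1, and the counts depended on which libraries were present. Without WT replicate 1, 13 of the 38 genes (34.2%) were lower at an unadjusted p under 0.05, against 3.61% of all genes in the same fit, and 21 (55.3%) were lower without overlap, against 11.9%. Without *Crlf2-/-* replicate 3 these counts were 16 (42.1%, against 4.16%) and 13 (34.2%, against 11.6%). Without WT replicate 2 the count at an unadjusted p under 0.05 was 2 (5.26%, against 1.84%), and without WT replicate 3 it was also 2 (against 3.27%). Without *Crlf2-/-* replicate 1, 26 genes were lower and 12 higher, with a median log2 fold change of -0.13. At an unadjusted p under 0.05, 4 were lower in that fit (10.5%, against 3.12% of all genes). Without overlap, 2 were lower (5.26%, against 11.5%) and 3 were higher (7.89%, against 11%). The 29 other cardiomyocyte genes moved in the same fits. At an unadjusted p under 0.05, 12 (41.4%) were lower without WT replicate 1 and 14 (48.3%) without *Crlf2-/-* replicate 3. In the same way 1 (3.45%) was lower without *Crlf2-/-* replicate 1, and 0 without WT replicate 2 or WT replicate 3. Leaving out each library in turn, the median log2 fold change of the 38 genes ranged from -0.67 to -0.13.

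As a share of all fragments on listed genes, the 39 genes held 0.748%, 1.274% and 1.203% in WT and 0.588%, 0.798% and 1.085% in *Crlf2-/-* hearts. Their exact binomial 95% intervals were narrower than the differences between libraries (0.744% to 0.752% in WT replicate 1), and such intervals cover counting error only. The group means were 1.08% ± 0.286 and 0.824% ± 0.249 (SD, n = 3 each), a difference within the spread (exact permutation test, two-sided, p = 0.3). *Actc1* alone made up 17.99%, 20.7% and 19.0% of these fragments in WT and 20.2%, 11.5% and 16.2% in *Crlf2-/-* hearts, and *Acta1* made up 9.45% in *Crlf2-/-* replicate 2 and between 0.486% and 1.24% elsewhere. The share of fragments on mitochondrial genes was 3.54% ± 0.482 in WT and 2.93% ± 0.123 in *Crlf2-/-* hearts (exact permutation p = 0.1).

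Other cardiomyocyte genes moved with the sarcomere genes. Of 29 tested cardiomyocyte genes outside the sarcomere, 27 were lower in *Crlf2-/-* hearts, with a median log2 fold change of -0.45. At an unadjusted p under 0.05, 8 were lower (27.6%, against 3.36% of all genes), and the groups overlapped in all 29. Without *Crlf2-/-* replicate 2, 25 were lower, 1 of them at an unadjusted p under 0.05 (3.45%, against 2.88%), and the median was -0.53. The summed level of the 30 listed genes was 650 to 1034 FPKM in WT and 367 to 816 FPKM in *Crlf2-/-* hearts. *Fabp3*, the fatty acid-binding protein of heart muscle, and *Ckmt2*, the mitochondrial creatine kinase of striated muscle, had the smallest p, at -1.21 and -1.07. Medians of the 29 genes per library relative to the WT mean were -0.46, 0.18 and 0.36 in WT and -1.01, -0.50 and 0.00 in *Crlf2-/-* hearts. *Crlf2-/-* replicate 1 was lowest and WT replicate 3 highest, as for the sarcomere genes, but *Crlf2-/-* replicate 2 lay below WT replicate 1 here and above it there. The list of 40 further sarcomere and Z-disc genes, many of which are also used outside cardiomyocytes, was near the background, with 22 of 37 tested genes lower, 0 at an unadjusted p under 0.05 in either direction and a median of -0.10. With *Crlf2-/-* replicate 2 left out, 27 were lower and the median was -0.17. In it *Pdlim3* and *Tpm2* had the smallest p, at -0.30 and 0.60, and *Tpm2* had its highest value in *Crlf2-/-* replicate 2 (103 FPKM against 34.3 to 49.0). Of the lists of other cell types, medians were 0.09 for fibroblast and matrix genes, 0.10 for smooth muscle, 0.10 for macrophages, 0.03 for the atrium and -0.17 for endothelium. The median of red blood cell genes was -1.29, with 5 of 5 tested genes lower at an unadjusted p under 0.05 and a summed level of 228 to 366 FPKM in WT and 85.4 to 161.0 FPKM in *Crlf2-/-* hearts. The part of these other lists in the values of the sarcomere genes was not tested.

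Set against the median of the 29 other cardiomyocyte genes in the same library, some sarcomere genes were further down and others were not. That median itself was 0.45 lower in *Crlf2-/-* hearts on the log2 scale (3.26 ± 0.319 against 2.81 ± 0.634, exact permutation p = 0.4). Relative to it, *Myl3* was lower by 1.07, *Myl2* by 0.90 and *Tnni3* by 0.89, each without overlap of the groups (exact permutation p = 0.1 for each, the smallest possible). The size of these differences rested partly on *Crlf2-/-* replicate 2, without which they were 0.69, 0.53 and 0.31. In that library the reference median was 3.12, above the 2.90 of WT replicate 1. Taken each against its own WT mean, the same 29 genes lay slightly lower there (-0.50 against -0.46). Of the 30 listed reference genes, 4 had their highest value in *Crlf2-/-* replicate 2. The part of these genes in the relative values of that library was not tested. *Flnc* and *Myl4* were higher by 0.89 and 1.75 without overlap, and by 1.03 and 0.75 without *Crlf2-/-* replicate 2. *Cmya5*, *Xirp2*, *Des*, *Nrap* and *Xirp1* were higher by between 0.35 and 0.62 with overlapping groups. The median over all genes tested was 0.44 on this scale, so values of this size were close to those of genes at large. In all, 24 genes lay above 0 and 14 below on this scale, while 14869 of the 15520 tested genes lay above 0. By the same measure 2 of the 38 (5.26%) were higher without overlap, a smaller share than the 7.38% of all genes tested. Lower without overlap were 3 of the 38 and 50 of the 15520 genes. Because the reference was itself lower in *Crlf2-/-* hearts, few genes at large could be lower on this scale. These counts therefore cannot be read against each other.

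**Figure D5:**
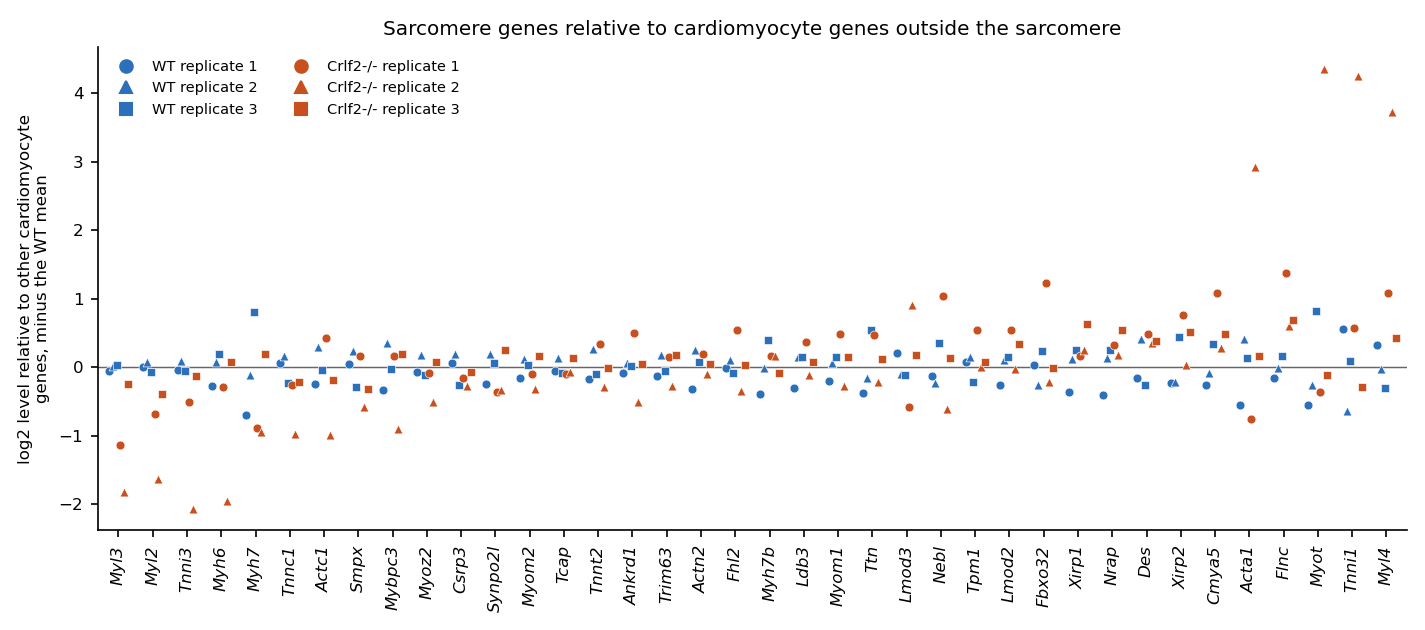
Level of each of the 38 genes relative to the median of 29 cardiomyocyte genes outside the sarcomere in the same library, on the log2 scale and minus the WT mean, ordered by the difference between the groups. The WT libraries lie close together for *Myl3*, *Myl2* and *Tnni3* with all 3 *Crlf2-/-* libraries below them, and for *Flnc* and *Myl4* all 3 *Crlf2-/-* libraries lie above.

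Gene length varied along with these differences. Across the 38 genes, which are not independent of each other and share the same 6 libraries, Spearman's rho between the length of the gene model and the log2 fold change was 0.31 (Pearson's r 0.17), and 0.53 (0.48) without *Crlf2-/-* replicate 2. Over all genes tested rho was 0.06, and 0.21 without that library, and over the 29 other cardiomyocyte genes it was 0.73 and 0.77. The 19 shorter sarcomere genes, of 948 to 3795 bases, lay at a median log2 fold change of -0.43, and the 19 longer ones, of 4163 to 116825 bases, of -0.32. Without *Crlf2-/-* replicate 2 these medians were -0.61 and -0.29. The part of gene length in the values of single genes was not tested.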

How the data were processed

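RNA from infarcted and peri-infarcted hearts of 3 WT and 3 *Crlf2-/-* mice was sequenced on day 7 after ligation. Per the study's methods reads were trimmed, aligned by the authors using HISAT2 2.0.5 and counted per gene with featureCounts, and the authors deposited FPKM beside gene lengths. The labels name the builds hg38 and mm10 without roles. Of 54532 listed genes, 53585 had the same start, end and strand in GENCODE M21 (GRCm38). The use of strand in counting is not given in the sources used here. Deposited FPKM multiplied by gene length and divided by 1 constant per library gave whole fragments (within 0.02) for 100% of nonzero values. The table held 0 columns of other samples.

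TMM factors came from these fragments, and log2(scaled FPKM + 0.1) was fitted with limma 3.58.1 (eBayes with trend and robust) in R 4.3.3, over the 15520 genes that had a total of at least 15 fragments and no fewer than 10 in 3 or more libraries. The fit was also tested on simulated data. Other steps used matplotlib 3.10.9, pandas 2.3.3, scipy 1.17.1 and numpy 2.4.6 under Python 3.11.15. The genes and lists were chosen with earlier results of these data known. Every gene is given with its group values, and values per library are given for isoform pairs, the 5 genes of smallest p, the largest and smallest changes, genes with a higher mean in *Crlf2-/-* hearts and the most abundant gene of each role. Of other lists, the 2 genes of smallest p could be named, along with *Tnnc2*, *Myh1*, *Myod1* and *Myog*, chosen after their values were seen. Replicate numbers were not taken to pair the samples. Alternatives were other scalings, filters, pseudocounts and fold thresholds, a replicate block, voom on the fragments, eBayes without trend and robust, and each library left out.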

Additional observations from a re-analysis of the deposited data

How the results depend on the processing

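Under 16 alternatives to the fit, none of the 38 sarcomere genes was called different, and the lowest adjusted p of any of them was 0.126 (limma). No log2 fold change of these genes changed sign under another scaling, filter, pseudocount, voom, eBayes setting or replicate block. Genes called different, 2 in all, numbered 6 without a filter on low genes, 1 when 10 fragments were asked of every library and 4 with the replicate number as a block. With that block, 20 sarcomere genes were lower and 1 was higher at an unadjusted p under 0.05 (52.6% and 2.63% of the 38, where 3.73% and 3.4% of all genes were), against 5 and 0 without it. Of the 29 other cardiomyocyte genes, 14 (48.3%) were lower by this measure with the block and 8 (27.6%) without it. Same-numbered libraries deviated together by a correlation of -0.016, 0.116 and 0.120, and not every library correlated best with its own number, so the numbers were not taken as pairs. The *Myl7*/*Myl2* difference was 4.51 with a pseudocount of 0.01.

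Leaving out each library in turn, genes called different numbered from 1 to 14, and genes lower at an unadjusted p under 0.05 from 286 to 645. Sarcomere genes with a higher mean numbered from 4 to 13, those lower at an unadjusted p under 0.05 from 2 to 16, those higher from 0 to 1, those lower without overlap from 2 to 21 and those higher without overlap from 0 to 3. The log2 fold change changed sign in 13 genes. It ranged from -0.90 to 1.46 for *Acta1*, from -0.84 to 2.03 for *Myot*, from -0.46 to 1.90 for *Tnni1* and from -0.80 to 0.46 for *Lmod3*. It ranged from -0.14 to 0.46 for *Cmya5*, from -0.30 to 0.29 for *Des*, from -0.28 to 0.13 for *Fbxo32*, from -0.47 to 0.073 for *Lmod2*, from -0.50 to 0.049 for *Nebl*, from -0.48 to 0.28 for *Nrap*, from -0.69 to 0.075 for *Ttn*, from -0.46 to 0.36 for *Xirp1* and from -0.31 to 0.33 for *Xirp2*. The cause was not tested. With 3 libraries per group the spread between libraries limits these values. *Myl7*, *Myh7b*, *Tnni1* and *Myot* also rest on few fragments, and counting error adds to their spread.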
